A study of Mus musculus with 57 samples.

Results

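Somites of the cervical and upper thoracic trunk (C3-T2) were compared between wild-type (wt) and *Hoxa5*-/- mouse embryos at E12.5 by bulk RNA-seq. The comparison holds the 8 libraries that the labels give to this tissue and stage, 4 wt and 4 *Hoxa5*-/-, of 57 libraries in the series. Within them, the genes whose mean reached 1 TPM in either genotype were taken, 18906 of the 56860 listed. TPM is the count of a gene per length of exon, on a scale with 1 common sum for every library. Both groups are E12.5 embryos of the 129/Sv background. The *Hoxa5*-/- embryos carry the null allele *Hoxa5tm1Rob* on both chromosomes, in which a neomycin cassette interrupts the homeobox, and the wt embryos carry none. Each library stands for 1 biological replicate, and sex was not given. The trunk segments had been freed of neural tube, forelimbs and thoracic organs, so that they are bulk tissue of the somite derivatives left there. Genes of vessels, blood, nerves and skin were also present in them. RNA was selected for polyA tails and read as pairs of 150 bases. The question was which muscle, cartilage and dermis precursor genes differ without *Hoxa5*, and how large a difference these libraries could have missed.

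*Hoxa5* encodes a homeodomain transcription factor that acts in positional identity along the neck and upper trunk, and its loss is known for shifts in the identity of cervical and upper thoracic vertebrae. Somites are blocks of paraxial mesoderm that part into a dermomyotome, the source of skeletal muscle, dorsal dermis and brown fat, and a sclerotome, the source of vertebrae and ribs. Muscle cells are committed by *Myf5* and *Myod1* and differentiate under *Myog*, while *Pax1* and *Pax9* mark the sclerotome and *Sox9* drives cartilage matrix genes such as *Col2a1*. Tendon progenitors at the border of muscle and cartilage express *Scx*, and dermal fibroblast precursors express *Twist2* and *En1*.

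*Hoxa5* lies on the minus strand at chr6:52178734-52181567 (GRCm39, ENSMUSG00000038253.7). Its coding sequence spans 2 exons in the annotation used for counting, and the homeobox, the part that the cassette interrupts, lies in exon 2 at chr6:52179612-52179791. The 180 bases encode codons 195 to 254 of 270. They are shown because this is the stretch that the mutation breaks up, and capitals mark the 6 codons of the invariant WFQNRR motif in the DNA recognition helix.
*Hoxa5* homeobox: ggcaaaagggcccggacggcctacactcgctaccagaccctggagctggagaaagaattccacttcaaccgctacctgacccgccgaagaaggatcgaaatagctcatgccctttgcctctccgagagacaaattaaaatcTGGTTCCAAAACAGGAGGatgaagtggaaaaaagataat
The exon before the homeobox, and homeobox sequence on either side of the cassette, remain in the mutant allele, so that reads of *Hoxa5* could still be counted in mutants. The position of the insertion within the homeobox was not analysed here.

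Total counts were 26553963 to 28234711 in wt and 25211612 to 26832454 in *Hoxa5*-/- libraries, and TMM factors lay between 0.984 and 1.02. The markers of the labelled tissue were present in all 8 libraries, with *Pax7* at 15.46 TPM or more, *Myod1* at 139.8, *Pax1* at 39.7 and *Scx* at 82.3. Of the neural tube markers, *Pax6* and *Olig2* stayed under 1 TPM in every library, whereas *Sox2* reached 18.6 TPM, and the forelimb gene *Tbx5* lay between 23.6 and 37.7 TPM. *Xist*, made from the inactive X chromosome, was high in wt replicate 1 and *Hoxa5*-/- replicates 3 and 4, which lacked *Ddx3y* of the Y chromosome. The first principal component (21.1% of the variance) set replicates 1 and 2 of both genotypes apart from replicates 3 and 4, which accounted for 93.8% of its spread, and genotype for 2.74%. Genotype accounted for 68.5% of the third component (14.8% of the variance). A set of 3 libraries of 1 group, wt replicates 1, 2 and 4, also held RNA of the inner-ear genes *Oc90*, *Otol1* and *Hmx3*, each of which stayed under 1 TPM in the other 5 libraries, and the main values without them are given for the genes they bear on most.

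*Hoxa5* was the only gene called by edgeR's quasi-likelihood test. *Hoxa5* measured 98.4, 92.7, 112 and 107 TPM in wt and 32.4, 29.2, 29.7 and 43.6 TPM in *Hoxa5*-/- libraries. All 4 mutant libraries lay far below the lowest wt library, and the genotypes did not overlap. The log2 fold change of *Hoxa5* was -1.61 (95% interval -1.87 to -1.34) with an SE of 0.12 and an adjusted p of 0.000562, which is a fall of 67.1%. A called gene had a Benjamini-Hochberg adjusted p under 0.05 over all 18906 genes and a fold change of at least 1.5, and 1 of 18906 (0.00529%) met both. In bulk tissue, fewer cells that use a gene and less of its RNA per cell cannot be told apart. With wt replicate 3 alone against the 4 mutants, the log2 fold change was -1.74 and the adjusted p 0.0739 by edgeR, where the lone library is assumed to vary like the others.

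How large a difference could have gone unseen was read from the 95% interval of each gene's log2 fold change. Each interval holds for its gene alone, not for all genes at once, and bounds the mean of the whole segment. A larger change in part of its cells was not tested. The interval lay inside 1.5-fold in both directions for 13572 of 18906 genes (71.8%) and inside 2-fold for 15923 (84.2%). Over all genes, the median distance from the estimate to either end of the interval was 0.22 on the log2 scale, a rise of 16.7%. The distance was shorter in genes of higher level. Among 6044 genes with a mean under 5 TPM, 26.4% lay inside 1.5-fold, against 84.3% of 4753 genes from 5 to 20 TPM, 98.2% of 6265 from 20 to 100 TPM and 98.8% of 1844 above. At unadjusted p under 0.05, 270 genes (1.43%) were higher and 343 (1.81%) lower in *Hoxa5*-/- somites, and the libraries of the genotypes did not overlap in CPM (counts scaled to library size by TMM) for 502 genes (2.66%). With 4 against 4 interchangeable libraries, chance alone leaves a share of 0.0286 without overlap. DESeq2 on the same genes called 2, *Hoxa5* and *Oc90*, with 456 at unadjusted p under 0.05.

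**Figure D1:**
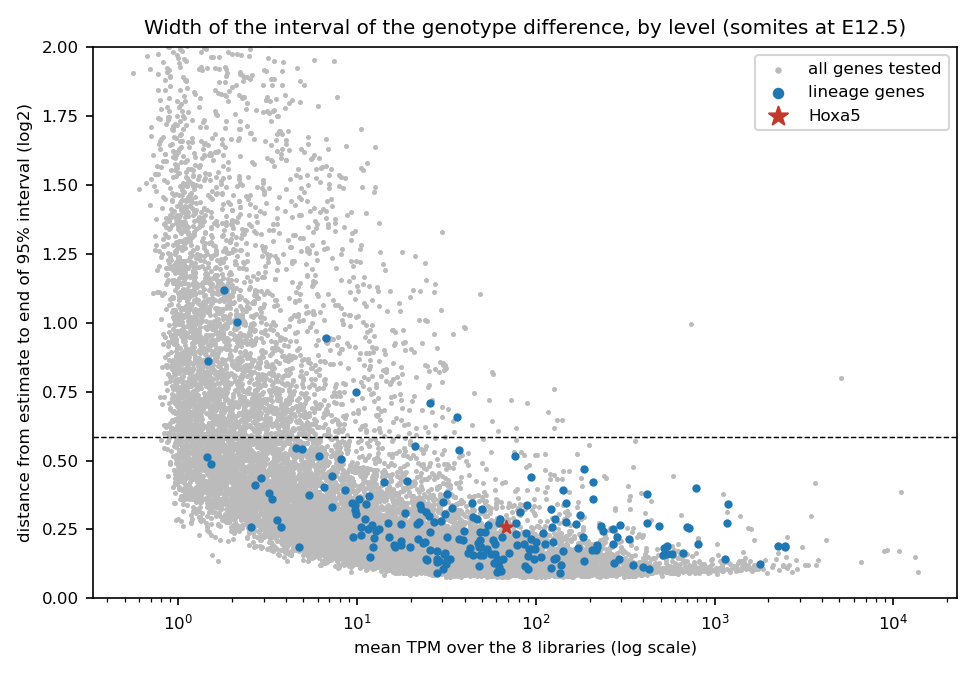
Distance from the estimated log2 fold change to either end of its 95% interval, against mean TPM over the 8 libraries on a log scale. Grey points are all genes tested with a distance up to 2 (660 are not drawn), blue points the lineage genes and the star *Hoxa5*. The dashed line is 1.5-fold, and most points above 20 TPM lie under it.

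Of 209 genes listed for 8 derivatives or precursors of the somite, 203 were tested, and none was called by edgeR or by DESeq2. Over all genes edgeR called 1 of 18906 (0.00529%), so that 0 called does not set these genes, or any list below, apart. At unadjusted p under 0.05, edgeR had 2 of the 203 lineage genes (0.985%, against 3.24% of all genes), both lower in mutants and 1 of them *Cnmd*. DESeq2 had 3 (1.48%, against 2.41%). The edgeR count moved with the fit. With replicates 1 and 2 against 3 and 4 as a term, an alternative added after the data were seen, it was 31 (15.3%, against 7.91% of all genes), of which 14 were higher and 17 lower in mutants, and with the replicate number as a block it was 37 (18.2%, against 7.3%). Leaving out 1 library gave 2 to 11. There were 11 without wt replicate 2 (5.42%, against 3.13% of all genes), 8 of them higher and 3 lower in mutants. Without wt replicate 1 there were 10 (4.93%, against 3.72%), all lower. None of these fits called a lineage gene. Counts by list below come from the fit of all 8 libraries without such a term, and were not made by list with it. The interval lay inside 1.5-fold for 182 of 203 (89.7%, against 71.8% of all genes) and inside 2-fold for 197. Genes under 5 TPM, of which 26.4% lay inside 1.5-fold, lower the share of all genes, and the shares were not matched for level. The median distance from the estimate to either end of the interval was 0.22 on the log2 scale for lineage genes and for all genes. No lineage gene had libraries that did not overlap between genotypes, against 2.66% of all genes. The median log2 fold change was -0.0085 over these genes and -0.0028 over all genes. Those under the minimum included *Plin1*, *Ucp1* and *Adipoq* of mature fat, *Ripply2* of the sclerotome list and *Tnnc2*, a troponin of fast muscle. Just outside the limit *Tnnc2* averaged 0.427 TPM in wt and 0.449 TPM in mutants, and the lowest that passed were *Cidea* with 1.55 and 1.36 and *Pax3* with 1.58 and 1.46 TPM.

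**Figure D2:**
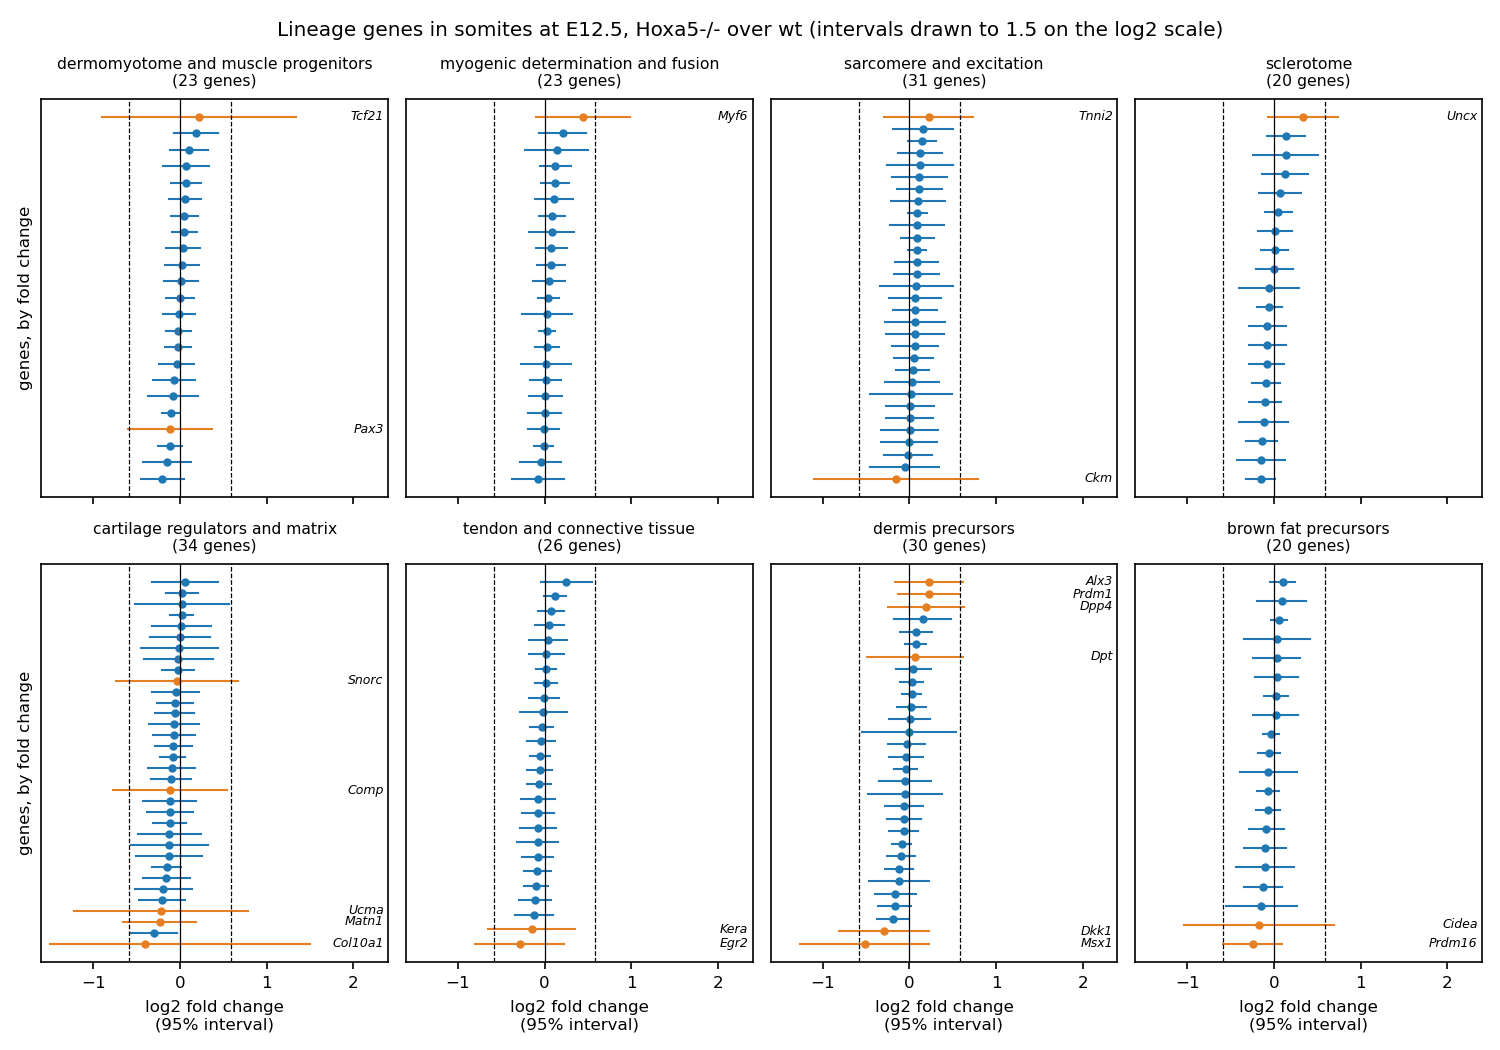
Log2 fold change (*Hoxa5*-/- over wt) with 95% interval of every lineage gene tested, ordered by fold change within its list. Dashed lines mark 1.5-fold, blue intervals lie inside them, orange intervals cross at least 1 and are named, and intervals are drawn no farther than 1.5 on the log2 scale. Every list is centred near 0, and the widest intervals belong to *Col10a1*, *Tcf21*, *Ucma* and *Ckm*.

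Muscle genes were measured at every step from the dermomyotome to the sarcomere. In the list of dermomyotome and muscle progenitor genes, 23 were tested, 0 called by edgeR and 1 at unadjusted p under 0.05, with a median log2 fold change of -0.0032 and 21 intervals inside 1.5-fold. *Pax7* measured 16.2, 17.9, 18.6 and 16.6 TPM in wt and 15.46, 16.6, 19.3 and 19.6 TPM in *Hoxa5*-/- libraries, and the libraries of the genotypes were mixed. The interval of *Pax7*, which marks the progenitors that feed later muscle growth, ran from -10.4% to 17.4%. Of the most abundant members, *Meox1* and *Meox2*, homeodomain factors of the paraxial mesoderm, had log2 fold changes of 0.051 (95% interval -0.10 to 0.20) and 0.013 (95% interval -0.18 to 0.21), and the Notch receptor gene *Notch3* had -0.070 (95% interval -0.31 to 0.17). *Eya1*, a transcriptional cofactor, had -0.20 (95% interval -0.45 to 0.047). The wide intervals were those of *Pax3*, the dermomyotome regulator, at -0.12 (95% interval -0.60 to 0.37), and *Tcf21*, a bHLH factor gene, at 0.22 (95% interval -0.90 to 1.34), both with means under 2 TPM. A rise of 1.5-fold lay outside the interval of *Pax3* and a fall of that size just inside it, while that of *Tcf21* held both.

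Among 23 genes of myogenic determination and fusion, 0 were called by edgeR and 0 had an unadjusted p under 0.05, and 22 intervals lay inside 1.5-fold. Of the estimates, 19 were above 0, with a median of 0.043. The median was 0.018 without wt replicate 4 and 0.13 without wt replicate 2. *Myod1* measured 168, 191, 176 and 139.8 TPM in wt and 172, 167, 182 and 174 TPM in *Hoxa5*-/- libraries. *Myog* measured 511, 562, 478 and 445 TPM in wt and 561, 529.9, 499 and 504 TPM in *Hoxa5*-/- libraries. Mutant libraries of both lay within the wt range, which wt replicate 4 set at the low and wt replicate 2 at the high end, and the intervals ran from -8.88% to 17.6% for *Myod1* and from -5.69% to 17.3% for *Myog*. *Myf5* measured 29.7, 28.6, 24.1 and 21.0 TPM in wt and 29.5, 26.0, 20.6 and 21.6 TPM in *Hoxa5*-/- libraries, with replicates 1 and 2 of both genotypes above replicates 3 and 4. Its log2 fold change was -0.076 (95% interval -0.37 to 0.22). The fusion gene *Mymx* had 0.21 (95% interval -0.063 to 0.48) and the cell cycle inhibitor gene *Cdkn1c*, the most abundant member at 2479 and 2474 TPM in wt and mutants, had 0.00099 (95% interval -0.19 to 0.19). The exception was *Myf6*, a late determination factor that measured 4.30, 4.52, 4.26 and 2.49 TPM in wt and 6.28, 5.68, 5.73 and 3.32 TPM in *Hoxa5*-/- libraries, with a log2 fold change of 0.44 (95% interval -0.10 to 0.99) and an unadjusted p of 0.103 by edgeR. Replicate 4 was the lowest of each genotype, and the other 3 mutants lay above every wt library.

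Of 31 sarcomere and excitation genes, 0 were called by edgeR and 0 had an unadjusted p under 0.05, 29 intervals lay inside 1.5-fold, and 27 estimates were above 0 with a median of 0.068. The summed level of the list was 8745, 10260.4, 8124 and 7164 TPM in wt and 10048, 10015, 7813 and 8249.6 TPM in *Hoxa5*-/- libraries. It was highest in wt replicate 2, followed by *Hoxa5*-/- replicates 1 and 2, and lowest in wt replicate 4, so that the spread within wt covered the mutants. The median depended on single libraries, at -0.012 without wt replicate 4, 0.012 and 0.015 without *Hoxa5*-/- replicates 1 and 2, and 0.18 without wt replicate 2. *Actc1*, the actin of embryonic muscle, had a log2 fold change of 0.091 (95% interval -0.099 to 0.28) at 2197 and 2333 TPM, *Acta1* -0.054 (95% interval -0.45 to 0.34), the fast light chain gene *Mylpf* 0.16 (95% interval -0.18 to 0.50) and the troponin gene *Tnnc1* 0.12 (95% interval -0.13 to 0.38). The embryonic myosin gene *Myh3* had 0.083 (95% interval -0.18 to 0.34). The smallest unadjusted p values of the list belonged to *Chrna1*, a subunit of the acetylcholine receptor, with 0.15 (95% interval -0.017 to 0.31) and an unadjusted p of 0.0742 by edgeR, and *Neb* (nebulin), with 0.092 (95% interval -0.014 to 0.20) and an unadjusted p of 0.0819 by edgeR. *Ckm*, the muscle creatine kinase, and *Tnni2*, a fast troponin, were left with intervals past 1.5-fold, -0.15 (95% interval -1.10 to 0.79) and 0.22 (95% interval -0.29 to 0.74).

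**Figure D3:**
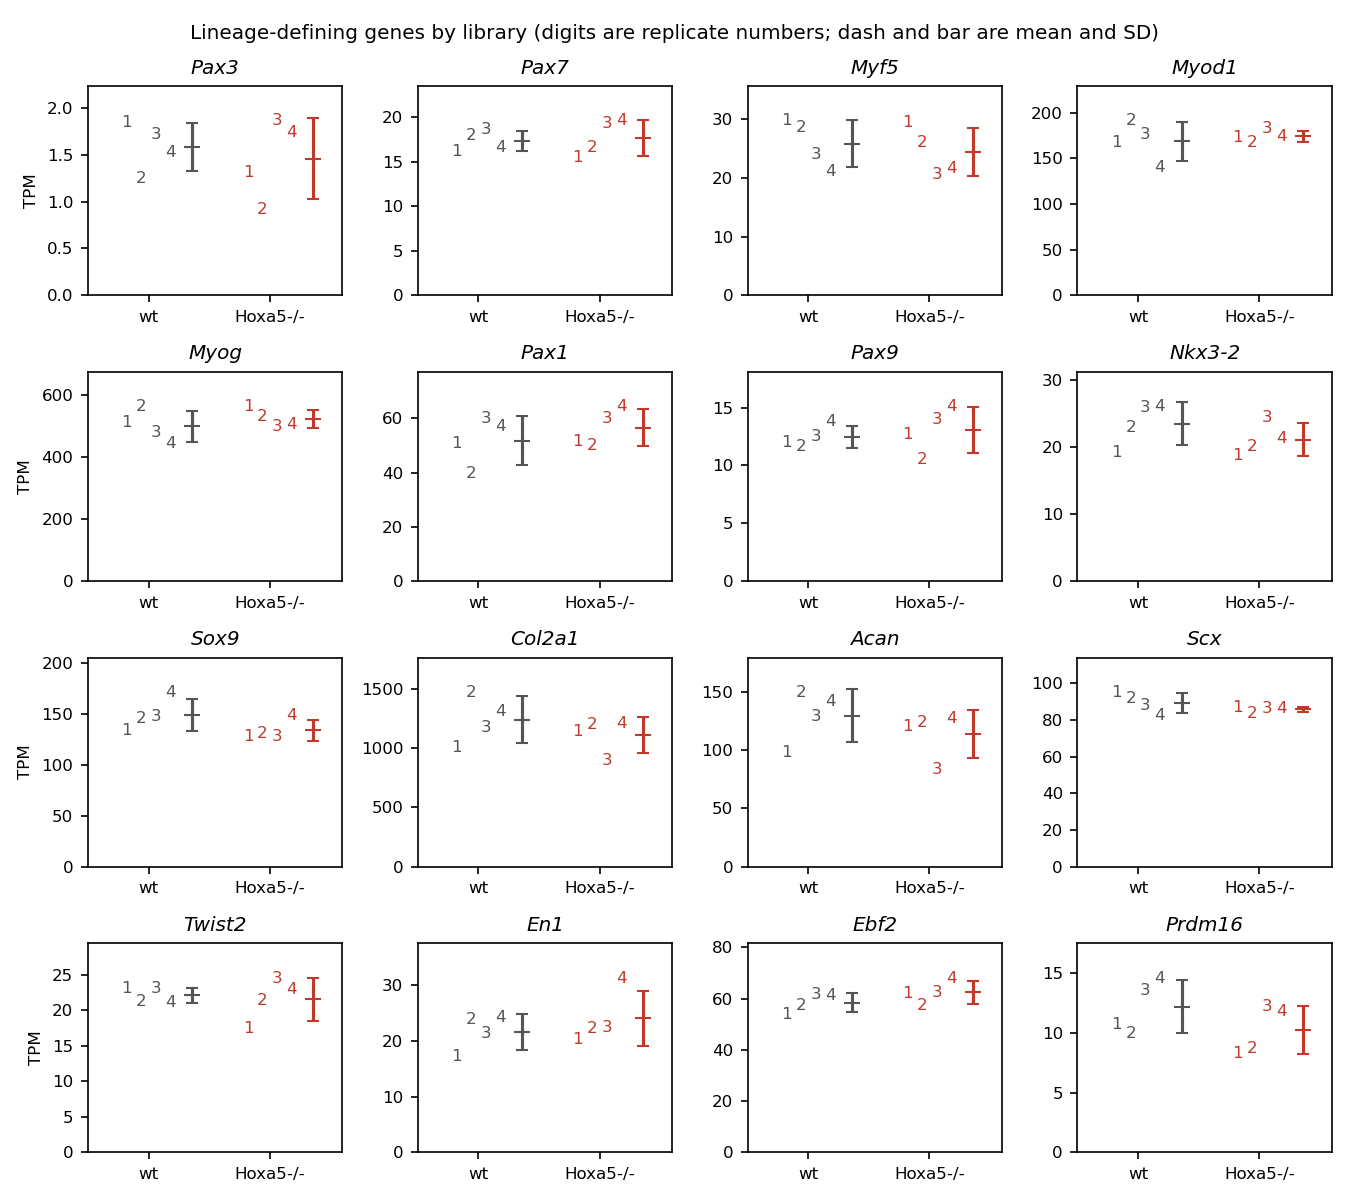
TPM of 16 genes that define muscle (*Pax3* to *Myog*), sclerotome and cartilage (*Pax1* to *Acan*), tendon (*Scx*), dermis (*Twist2*, *En1*) and brown fat precursors (*Ebf2*, *Prdm16*) in each library. Digits are replicate numbers, the dash and bar are mean and SD (n = 4), grey is wt and red *Hoxa5*-/-, and every axis starts at 0. The genotypes overlap in all 16 panels.

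The sclerotome list had 20 genes tested, 0 called by edgeR and 0 at unadjusted p under 0.05, a median log2 fold change of -0.055 and 19 intervals inside 1.5-fold. *Pax1* measured 50.7, 39.7, 59.95 and 56.9 TPM in wt and 51.4, 50.1, 59.9 and 64.3 TPM in *Hoxa5*-/- libraries, with the lowest value in wt replicate 2 and the highest in *Hoxa5*-/- replicate 4. Its interval ran from -9.00% to 31.3%, that of *Pax9* from -11.2% to 24.4% and that of *Nkx3-2*, which acts downstream of *Pax1* and *Pax9*, from -25.7% to 8.96%. *Twist1*, a bHLH factor of the mesenchyme and the most abundant member, had a log2 fold change of 0.0012 (95% interval -0.21 to 0.22). The widest interval was that of *Uncx*, a homeobox gene of the caudal sclerotome with 5.81 and 7.31 TPM in wt and mutants, at 0.33 (95% interval -0.070 to 0.74).

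Cartilage genes gave estimates mostly below 0. Of 34 regulators and matrix genes, 28 were below 0 with a median log2 fold change of -0.089, 0 were called by edgeR, 1 (*Cnmd*) had an unadjusted p under 0.05, and 29 intervals lay inside 1.5-fold. The lean below 0 rested on single libraries, since the median was 0.0056 when wt replicate 2 was left out and 0.0011 when *Hoxa5*-/- replicate 3 was, against -0.15 on leaving out wt replicate 1. *Sox9* measured 133, 145, 147 and 171 TPM in wt and 128, 131, 128 and 149 TPM in *Hoxa5*-/- libraries. Of the 4 mutants, 3 lay below the lowest wt library and replicate 4 within the wt range, with a log2 fold change of -0.16 (95% interval -0.33 to 0.017) and an unadjusted p of 0.0726 by edgeR. *Col2a1*, the collagen of cartilage, measured 1006, 1472, 1175 and 1309 TPM in wt and 1146, 1205, 892 and 1211 TPM in *Hoxa5*-/- libraries, with the lowest value in *Hoxa5*-/- replicate 3 and the highest in wt replicate 2. These libraries also held the lowest and the highest *Acan*, the aggrecan gene, which had a log2 fold change of -0.19 (95% interval -0.52 to 0.13) against -0.16 (95% interval -0.43 to 0.12) for *Col2a1*. The summed level of the list was 4464 to 6110.3 TPM in wt and 3681 to 5119.8 TPM in *Hoxa5*-/- libraries, again lowest in *Hoxa5*-/- replicate 3 and highest in wt replicate 2. The collagen IX genes *Col9a1*, *Col9a2* and *Col9a3* had -0.049 (95% interval -0.32 to 0.22), -0.21 (95% interval -0.47 to 0.058) and -0.13 (95% interval -0.51 to 0.25). *Cnmd*, the chondromodulin gene, measured 224, 328, 216 and 251 TPM in wt and 214, 197, 195 and 224 TPM in *Hoxa5*-/- libraries. Its genotypes overlapped, the log2 fold change was -0.30 (95% interval -0.56 to -0.034) with an adjusted p of 0.999, and it was -0.14 without wt replicate 2. *Col10a1*, the collagen of hypertrophic cartilage, measured 2.88, 19.2, 0.588 and 2.399 TPM in wt and 13.5, 3.13, 1.18 and 1.004 TPM in *Hoxa5*-/- libraries. Its spread within each genotype was larger than the difference between them, and its log2 fold change of -0.41 (95% interval -2.49 to 1.68) left changes past 1.5-fold in either direction within the interval.

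The tendon and connective tissue list had 26 genes tested, 0 called by edgeR and 0 at unadjusted p under 0.05, with 24 intervals inside 1.5-fold and a median log2 fold change of -0.054. *Scx* measured 94.97, 91.7, 87.7 and 82.3 TPM in wt and 86.6, 83.6, 86.3 and 86.1 TPM in *Hoxa5*-/- libraries. All mutant libraries lay within the wt range, and the interval ran from -11.1% to 4.48%. The fibrillar collagen genes *Col1a1*, *Col1a2* and *Col3a1* had log2 fold changes of -0.11 (95% interval -0.29 to 0.078), -0.056 (95% interval -0.20 to 0.089) and 0.013 (95% interval -0.11 to 0.14) at 2569.8 and 2381, 1165 and 1119 and 1799.5 and 1813 TPM in wt and mutants, and *Col6a1* had -0.041 (95% interval -0.20 to 0.12). The smallest unadjusted p values were those of *Lum*, a proteoglycan of collagen fibrils, with 0.12 (95% interval -0.0032 to 0.24) and an unadjusted p of 0.0554 by edgeR, and *Tnmd*, the tendon gene tenomodulin, with 0.25 (95% interval -0.042 to 0.55) and an unadjusted p of 0.0863 by edgeR. *Egr2*, a zinc-finger factor at 1.59 and 1.29 TPM, had the widest interval, -0.29 (95% interval -0.80 to 0.22).

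Of 30 dermis precursor genes, 0 were called by edgeR and 0 had an unadjusted p under 0.05, the median log2 fold change was -0.041, and 24 intervals lay inside 1.5-fold, the smallest share (80.0%) of the 8 lists. The median was 0.022 without *Hoxa5*-/- replicate 1 and -0.094 without *Hoxa5*-/- replicate 3. *Twist2*, a bHLH factor of dermal fibroblast precursors, measured 23.1, 21.3, 23.0 and 21.0 TPM in wt and 17.4, 21.4, 24.5 and 22.9 TPM in *Hoxa5*-/- libraries. Its lowest and its highest value were both in mutants, replicates 1 and 3, and the interval ran from -15.7% to 13.5%. *En1*, a homeodomain gene of the central dermomyotome, measured 17.1, 23.7, 21.4 and 24.2 TPM in wt and 20.2, 22.2, 22.4 and 31.2 TPM in *Hoxa5*-/- libraries, with *Hoxa5*-/- replicate 4 above and wt replicate 1 below the rest. Its interval ran from -11.2% to 39.2%. Of the most abundant members, *Dlk1* had a log2 fold change of -0.038 (95% interval -0.23 to 0.16), *Sfrp2*, which codes for a secreted Wnt modulator, -0.10 (95% interval -0.26 to 0.061), and the retinoic acid binding protein genes *Crabp1* and *Crabp2* -0.12 (95% interval -0.29 to 0.047) and 0.027 (95% interval -0.10 to 0.16). *Dkk3*, of a family of secreted Wnt regulators, had -0.19 (95% interval -0.38 to 0.00051) with an unadjusted p of 0.0505 by edgeR, and the growth factor gene *Fgf10* had -0.17 (95% interval -0.37 to 0.024). *Msx1*, a homeobox gene of limb and dermal mesenchyme, measured 16.7, 8.36, 11.1 and 10.3 TPM in wt and 3.64, 6.37, 14.4 and 7.88 TPM in *Hoxa5*-/- libraries. Its levels spread about as widely within as between genotypes, its interval of -0.52 (95% interval -1.26 to 0.23) was the widest of the list, and a rise of 1.5-fold lay outside it while a fall of that size did not.

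Brown fat precursors share the dermomyotome with muscle and dermis. Of 20 such genes, 0 were called by edgeR and 0 had an unadjusted p under 0.05, with a median log2 fold change of -0.063 and 18 intervals inside 1.5-fold. *Ebf2*, an early factor of the brown fat lineage, measured 53.9, 57.3, 61.4 and 61.1 TPM in wt and 61.8, 57.4, 62.3 and 68.0 TPM in *Hoxa5*-/- libraries. The genotypes overlapped, and the interval ran from -2.94% to 18.1%. *Prdm16*, a regulator of brown fat identity, measured 10.7, 9.90, 13.5 and 14.6 TPM in wt and 8.26, 8.68, 12.2 and 11.8 TPM in *Hoxa5*-/- libraries. In both genotypes replicates 3 and 4 exceeded replicates 1 and 2, and within each of these sets both mutants lay below both wt libraries. The log2 fold change was -0.25 (95% interval -0.59 to 0.094), and -0.25 (95% interval -0.36 to -0.14) with the sets as a term, with an adjusted p of 0.396 by edgeR. *Ebf3*, *Zfp521*, *Pdgfrb* and *Bmpr1a*, the other abundant members, had 0.022 (95% interval -0.12 to 0.17), -0.068 (95% interval -0.21 to 0.074), -0.088 (95% interval -0.29 to 0.12) and 0.062 (95% interval -0.031 to 0.15). *Cidea*, a lipid droplet gene, stayed at 1.55 and 1.36 TPM and had -0.17 (95% interval -1.04 to 0.69).

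Hox genes were less tightly bound than the lineage genes. Of 39 Hox genes, 30 were tested and 1, *Hoxa5*, was called by edgeR. Inside 1.5-fold lay 15 of the 30 intervals, against 71.8% over all genes. At unadjusted p under 0.05, 4 of 30 were higher (*Hoxb4*, *Hoxb7*, *Hoxc4* and *Hoxc8*) and 4 lower (*Hoxa4*, *Hoxa5*, *Hoxa9* and *Hoxd9*), against 1.43% and 1.81% of all genes. *Hoxa4* measured 17.1, 17.99, 22.5 and 21.8 TPM in wt and 11.9, 16.02, 9.63 and 10.9 TPM in *Hoxa5*-/- libraries. *Hoxa9* measured 17.3, 17.2, 17.0 and 14.1 TPM in wt and 13.9, 13.6, 9.47 and 12.2 TPM in *Hoxa5*-/- libraries. For both genes every mutant library was below every wt library. The log2 fold changes were -0.71 (95% interval -1.06 to -0.36) for *Hoxa4* (unadjusted p 0.000943) and -0.41 (95% interval -0.67 to -0.15) for *Hoxa9* (unadjusted p 0.00552), and neither passed adjustment over all genes in edgeR, both with an adjusted p of 0.999. With no minimum level other than 1 count, edgeR gave *Hoxa4* an adjusted p of 0.041. The remaining HoxA genes had estimates from -0.59 (*Hoxa11*, 1.40 and 0.923 TPM) to -0.080 (*Hoxa2*), all below 0, and *Hoxa6* and *Hoxa7*, on the other side of *Hoxa5* from *Hoxa4*, had -0.22 (95% interval -0.61 to 0.18) and -0.38 (95% interval -0.93 to 0.17). *Hoxa3* and *Hoxa10* had -0.21 (95% interval -0.44 to 0.012) and -0.088 (95% interval -0.31 to 0.13). The paralogs of the same group gave no call either, with -0.032 (95% interval -0.32 to 0.26) for *Hoxb5* and 0.17 (95% interval -0.15 to 0.49) for *Hoxc5*. *Hoxc8* measured 10.9, 21.9, 20.3 and 29.2 TPM in wt and 31.5, 31.8, 20.9 and 70.6 TPM in *Hoxa5*-/- libraries, where *Hoxa5*-/- replicate 4 stood highest and wt replicate 1 lowest. Its log2 fold change of 0.91 (95% interval 0.12 to 1.69) was 0.45 without *Hoxa5*-/- replicate 4. *Hoxc9* and *Hoxd11*, both under 2 TPM, had 0.66 (95% interval -0.29 to 1.62) and 0.84 (95% interval -0.30 to 1.99). Of 9 genes of TALE homeodomain cofactors (Pbx, Meis and Pknox families), 0 were called by edgeR, 0 had an unadjusted p under 0.05 and 8 intervals lay inside 1.5-fold.

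**Figure D4:**
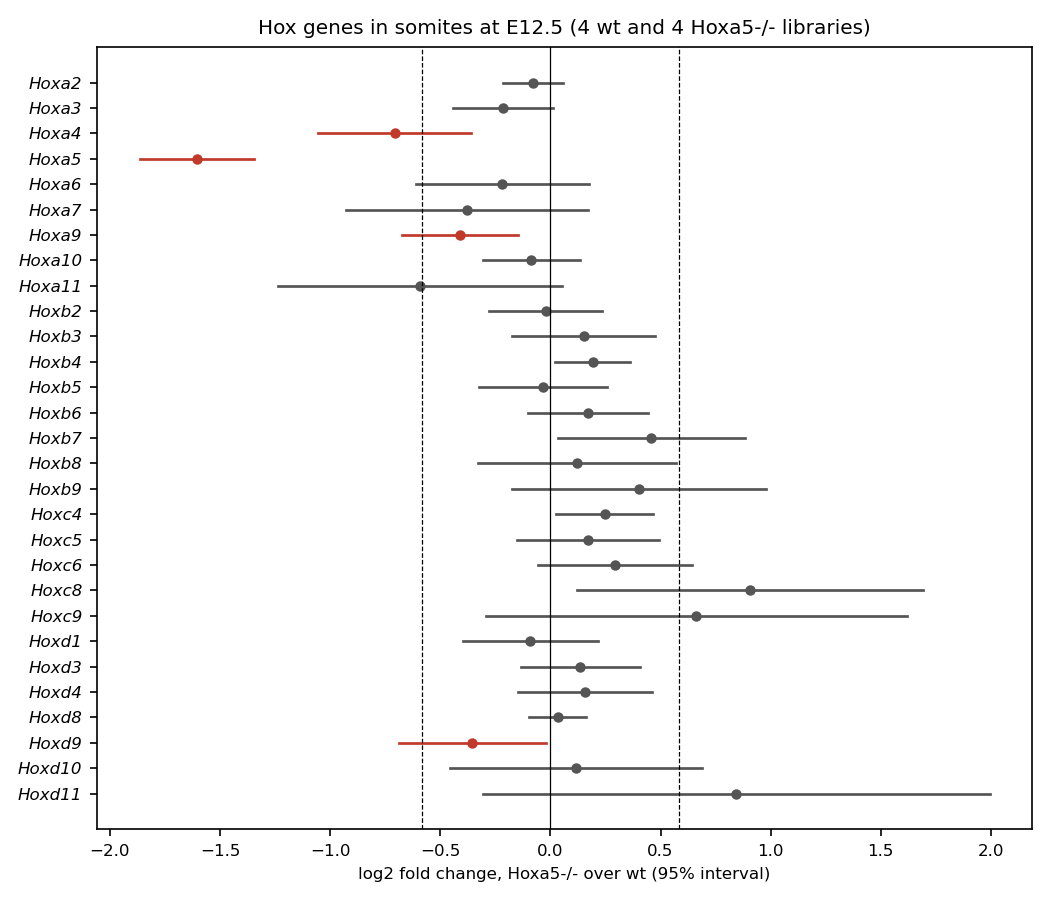
Log2 fold change (*Hoxa5*-/- over wt) with 95% interval of 29 Hox genes, by cluster. Red marks the 4 genes whose libraries did not overlap between genotypes in CPM (against 2.66% of all genes), grey the others, and dashed lines 1.5-fold. All 9 HoxA genes drawn lie below 0, while most HoxB and HoxC genes lie above it.

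Around *Hoxa5*, 30 genes including *Hoxa5* were tested within 1 Mb on chr6. Of these, 15 had an interval inside 1.5-fold, against 71.8% of all genes, and 5 did not overlap between genotypes, against 2.66%. Besides *Hoxa5*, *Hoxa4* (chr6:52166651-52168733) and *Hoxa9* (chr6:52200080-52208069), these were *Halr1* and *Cbx3*. *Halr1*, a long noncoding RNA on the plus strand at chr6:52079903-52091977, measured 2.31, 2.27, 1.80 and 1.96 TPM in wt and 1.62, 1.28, 1.45 and 0.817 TPM in *Hoxa5*-/- libraries and had a log2 fold change of -0.68 (95% interval -1.12 to -0.24). *Cbx3*, which codes for a heterochromatin protein, lies 718050 bases away and had 0.12 (95% interval 0.035 to 0.20), a small difference. None of these but *Hoxa5* was called. The annotated span of *Hoxa3* covers *Hoxa5* on the same strand, and *Hoxaas3* covers it on the other strand, so that reads there could fall on more than 1 gene where exons overlap. Overlap of exons was not examined, and the strand setting of the counting is not given in the sources used here.

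Genes with the smallest unadjusted p whose genotypes did not overlap were followed outside these lists, and none of them but *Hoxa5* was called by edgeR. Lack of overlap was a condition of their choice and is no further result. *D530018E20Rik* had 1.18 (95% interval 0.71 to 1.64) at 2.59 and 5.82 TPM, and *Gm5837*, *Gm11425* and *Zfp345*, a pseudogene pair and a zinc-finger gene of low level (*Gm11425* with 1 count in each wt library), had 0.97 (95% interval 0.54 to 1.40), 2.67 (95% interval 1.46 to 3.89) and 1.19 (95% interval 0.56 to 1.82). *Isy1*, a gene of the spliceosome, measured 14.4, 13.2, 13.5 and 12.7 TPM in wt and 15.7, 16.5, 15.7 and 16.7 TPM in *Hoxa5*-/- libraries. Every mutant library was above every wt library, with a log2 fold change of 0.27 (95% interval 0.15 to 0.39) and an adjusted p of 0.999. Lower in mutants were *Sgpp2*, a sphingosine phosphate phosphatase gene, with -0.98 (95% interval -1.45 to -0.52), *Pcyox1*, a prenylcysteine oxidase gene, with -0.18 (95% interval -0.26 to -0.093) at 98.8 and 87.2 TPM, and the inner-ear gene *Otol1*. *Sall1*, a zinc-finger factor of limb, kidney and ear, measured 5.23, 3.61, 3.55 and 5.16 TPM in wt and 3.04, 2.52, 2.13 and 2.56 TPM in *Hoxa5*-/- libraries. Every mutant lay below every wt library, with a log2 fold change of -0.77 (95% interval -1.13 to -0.41). With wt replicate 3 alone against the mutants it was -0.47 (95% interval -0.98 to 0.046). With every gene of at least 1 count kept, edgeR called 10 genes, *Hoxa5* and *Hoxa4*, *Sall1*, Barx1, Pitx1, Otx2, *Gzma* and the inner-ear genes *Oc90*, *Otol1* and Tectb. In the main fit Barx1 had -1.24 (95% interval -2.08 to -0.41) at 44.4 TPM in wt and 18.6 TPM in mutants. Pitx1 had -1.22 (95% interval -2.14 to -0.29) at 22.9 and 9.80 TPM. Libraries of the genotypes overlapped for both, and both had an adjusted p of 0.999 by edgeR. The tissue that gave this RNA was not tested.

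The change of the same genes with stage gives a scale for these intervals. From E10.5 to E12.5 in wt somites, edgeR called 8418 of 19773 genes (42.6%), a comparison that shares its 4 E12.5 wt libraries with that of the genotypes. Of the 203 lineage genes, 150 rose and 20 fell. All 31 sarcomere genes rose, with a median log2 change of 2.91 beside a genotype median of 0.068. Cartilage genes rose in 33 of 34 cases with a median of 4.10 beside -0.089, and all 26 tendon and connective tissue genes rose with a median of 3.85 beside -0.054. Dermomyotome genes divided, with 6 that rose and 8 that fell. Single genes moved with stage by 4.98 (*Myod1*), 3.21 (*Myog*), 0.76 (*Sox9*), 9.61 (*Tnmd*) and -4.64 (*Pax3*) on the log2 scale.

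Whether the genotype effect differed from that at E10.5 was tested as an interaction over 15 somite libraries. *Hoxa5* itself measured 164 to 236 TPM in the 4 wt and 85.2 to 112 TPM in the 3 *Hoxa5*-/- libraries at E10.5, with a log2 fold change of -0.92 (95% interval -1.18 to -0.66), and the difference of -0.68 (SE 0.17) between stages had an adjusted p of 0.327 by edgeR. Of 20419 genes, 3 (0.0147%) were called, *Tmem254*, *Gm6969* and *Rtraf-ps* (the latter pair annotated as pseudogenes), and 0 of 203 lineage genes. For all 3 the genotypes lay apart at E10.5 and overlapped at E12.5. *Tmem254* lay at 12.6 to 16.6 TPM in wt and 36.8 to 41.5 TPM in mutants at E10.5, and at 34.2 to 36.4 and 30.9 to 37.1 TPM at E12.5. *Gm6969* lay at 366 to 522 and 200.4 to 209.5 TPM at E10.5 and at 409 to 455 and 405 to 454 TPM at E12.5. The count rests on 1 E10.5 library. Without E10.5 wt replicate 3 it was 2571 (12.6%), with 29 of 203 lineage genes (14.3%), without *Hoxa5*-/- replicate 3 of E10.5 it was 16, and without its replicate 1 it was 7. At E10.5, with 4 wt and 3 *Hoxa5*-/- libraries, 56.6% of 18573 genes had an interval inside 1.5-fold.

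Genes of other tissues were also present in the dissected segments. *Oc90*, which codes for the main protein of the inner-ear otoconia, measured 61.5, 61.6, 0.296 and 89.9 TPM in wt and 0.146, 0.361, 0.0772 and 0 TPM in *Hoxa5*-/- libraries. Its wt replicates 1, 2 and 4 were high, whereas wt replicate 3 was as low as the mutants. The log2 fold change was -8.47 (95% interval -11.63 to -5.32), which DESeq2 called (adjusted p 4.66e-05) and edgeR did not (adjusted p 0.939). With wt replicate 3 alone it was -0.98 (95% interval -3.77 to 1.81). *Otol1*, another otoconial gene, measured 1.04, 1.84, 0.131 and 3.03 TPM in wt and 0, 0, 0.0683 and 0.0693 TPM in mutants, and *Hmx3*, a homeobox gene of the ear, 1.18, 1.37, 0.194 and 1.41 TPM in wt and 0.0955, 0.189, 0 and 0 TPM in mutants. The wt libraries with *Oc90* were those with *Otol1* and *Hmx3*. Summed over 10 inner-ear genes chosen after these values were seen, the level was 105, 98.6, 38.9 and 142 TPM in wt and 32.4, 42.9, 43.8 and 38.2 TPM in *Hoxa5*-/- libraries. *Oc90* is 1 of the 10 and makes up most of the excess in wt replicates 1, 2 and 4, so that the sum is no separate result. With wt replicate 3 alone against the mutants, 146 of 203 lineage genes had an interval inside 1.5-fold and 0 were called by edgeR, with 4 at unadjusted p under 0.05.

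A few further genes, chosen after their values were seen, were present in single libraries or pairs of libraries. *Pth*, the parathyroid hormone gene, measured 8.20, 6.17, 0 and 0 TPM in wt and 8.43, 17.1, 0 and 0 TPM in mutants, present in replicates 1 and 2 of both. *Gzma*, a granzyme gene, reached 6.36 and 4.94 TPM in *Hoxa5*-/- replicates 1 and 2, with at most 0.263 TPM elsewhere. *Sftpc*, the lung surfactant gene, was at 7.83 TPM in wt replicate 2 and at most 0.267 TPM in the others. For *Sox2*, every mutant library was below every wt library (18.6, 10.6, 9.29 and 10.02 TPM in wt, 8.46, 8.39, 7.03 and 6.41 TPM in mutants), with a log2 fold change of -0.67 (95% interval -1.13 to -0.21) and an adjusted p of 0.999 by edgeR. With wt replicate 3 alone against the mutants it was -0.29 (95% interval -0.78 to 0.20). *Sox2* marks otic as well as neural epithelium, and the part of these tissues in the difference was not tested. The spinal cord and neuron list summed to 364 to 931 TPM in wt and 481 to 625 TPM in *Hoxa5*-/- libraries, highest in wt replicate 3, and the neural crest, sensory neuron and glia list to 567 to 956 TPM in wt and 619 to 745 TPM in *Hoxa5*-/- libraries, also highest there. Their most abundant members were the neuronal genes *Tubb3*, with -0.15 (95% interval -0.70 to 0.41), and *Nefm*, with -0.13 (95% interval -0.78 to 0.51), and the glial gene *Fabp7* and the neuronal gene *Prph*, with -0.096 (95% interval -0.61 to 0.42) and -0.11 (95% interval -0.56 to 0.34). Neither list had a gene called by edgeR, while 1 of 11 and 4 of 17 tested had an unadjusted p under 0.05, all lower in mutants, against 1.81% of all genes, among them *Sox10*, a factor of crest and Schwann cells, with -0.22 (95% interval -0.40 to -0.027). Their part in other differences was not tested.

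**Figure D5:**
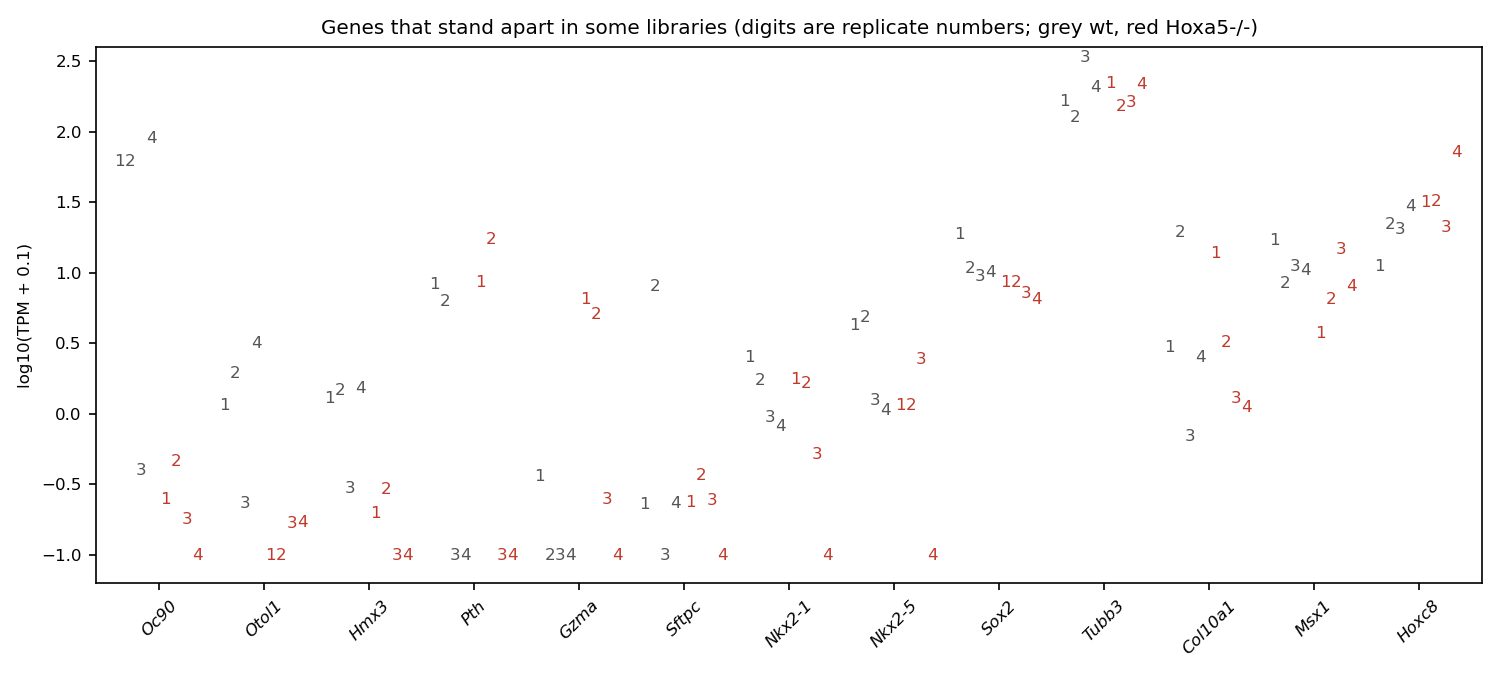
Level of 13 genes in each library, as log10(TPM + 0.1). Digits are replicate numbers, grey wt and red *Hoxa5*-/-. *Oc90*, *Otol1* and *Hmx3* are high in wt replicates 1, 2 and 4, *Pth* in replicates 1 and 2 of both genotypes, and *Sftpc* in wt replicate 2.

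Blood, vessel, skin and limb genes were also followed, and 0 of their members were called by edgeR, against 1 of 18906 genes (0.00529%) over all. The erythroid list summed to 12945 to 18669.9 TPM in wt and 14992 to 24485 TPM in *Hoxa5*-/- libraries, highest in *Hoxa5*-/- replicate 1, and the globin genes *Hba-a1* and *Hbb-y* had log2 fold changes of 0.21 (95% interval -0.012 to 0.43) and 0.31 (95% interval -0.078 to 0.69). In the blood endothelium list all 13 intervals lay inside 1.5-fold, with -0.050 (95% interval -0.23 to 0.13) for the junction gene *Cdh5* and -0.071 (95% interval -0.26 to 0.11) for *Cldn5*, and in the macrophage list 10 of 11, with 0.029 (95% interval -0.15 to 0.20) for *C1qb* and 0.19 (95% interval -0.043 to 0.42) for *C1qa*. Epidermal genes had 14 of 17 intervals inside 1.5-fold, with 0.051 (95% interval -0.21 to 0.31) for the basal keratin gene *Krt5* and -0.092 (95% interval -0.34 to 0.16) for *Krt15*. Of 12 shoulder girdle and forelimb genes, 1 (*Alx1*) was higher and 3 (*Lhx9*, *Fgf8* and *Hand2*) lower at unadjusted p under 0.05, against 1.43% and 1.81% of all genes. *Alx1*, a homeobox gene of the scapula field, measured 3.10, 3.25, 3.61 and 3.84 TPM in wt and 4.14, 4.70, 4.26 and 4.21 TPM in mutants without overlap, with 0.33 (95% interval 0.094 to 0.56) and an adjusted p of 0.999 by edgeR, while the forelimb genes *Shox2* and *Irx3* had -0.13 (95% interval -0.45 to 0.19) and -0.21 (95% interval -0.53 to 0.11). Thoracic and foregut organ genes were low, at 24.9 to 45.3 TPM in wt and 24.0 to 38.4 TPM in *Hoxa5*-/- libraries in sum, with 2 of 8 intervals inside 1.5-fold, with -0.044 (95% interval -0.48 to 0.39) for *Foxf1*, a factor of foregut mesenchyme, and 0.00073 (95% interval -0.31 to 0.32) for the atrial myosin gene *Myh6*. Of the notochord list, 2 of 7 intervals lay inside 1.5-fold, and its most abundant members *Cd24a* and *Sostdc1*, neither particular to the notochord, had -0.049 (95% interval -0.19 to 0.088) and -0.18 (95% interval -0.42 to 0.055).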

How the data were processed

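Per the labels and the methods of the study, featureCounts 2.0.3 gave the authors' counts per gene, on the Ensembl 109 annotation (GENCODE M32) with Hox genes curated by hand, after trimming by Trim Galore 0.6.5 and alignment by STAR 2.7.9a on GRCm39. Positions were read from the deposited annotation. The deposited counts are whole numbers without normalization, and the authors derived the deposited TPM from them and from exon length. Samples were grouped by their labels, and no library column was left without a sample.

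Genes entered when either genotype averaged 1 TPM or more. Counts were tested with edgeR 4.0.16 (TMM, glmQLFit, glmQLFTest) in R 4.3.3, adjusted by Benjamini-Hochberg, and called at an adjusted p under 0.05 and a fold of at least 1.5. Intervals used the unshrunken coefficient, its SE (coefficient over the root of F) and the t quantile. limma 3.58.1 and DESeq2 1.42.0 served as alternatives, beside other size factors, a minimum of 10 counts in 4 libraries, no minimum, the replicate number as a block, 1 fit for 15 libraries, *Xist* as a covariate and each library left out. The test was run on simulated counts with known changes before use. That simulation had no replicate sets and changed only genes of high count, so it does not cover replicate sets or changes in low-level genes. P-values measure the spread between these libraries. Named were *Hoxa5*, called genes, up to 5 genes in each direction of smallest p without overlap, of each lineage list the 4 most abundant, the 2 of smallest p and the 1 of widest interval, defining genes, HoxA genes, *Hoxb5*, *Hoxc5*, Hox genes past 1.5-fold, the 2 most abundant of other lists, and non-overlapping neighbours of *Hoxa5*. Members and lists were chosen with earlier results of these data known. Genes named outside this rule (for 1 library, a wide interval, a small unadjusted p, a role or an alternative) were chosen after their values were seen. Results of some genes are not reported here. Respiratory tables were not used here. Figures were drawn with matplotlib 3.10.9 in Python 3.11.15.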

Additional observations from a re-analysis of the deposited data

Results flagged for a closer look

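In groups of 4 libraries, the value farthest from the rest was compared with the whole range (Dixon's 95% limit for 4 values), in 248 groups, of which 13 passed and chance gives about 1 in 20. *Acan* was lowest in *Hoxa5*-/- replicate 3 at 83.1 TPM, with 119.9 to 127 TPM in the other 3. *Col10a1* was highest in wt replicate 2 at 19.2 TPM, with 0.588 to 2.88 TPM in the other 3. *Col10a1* was highest in *Hoxa5*-/- replicate 1 at 13.5 TPM, with 1.004 to 3.13 TPM in the other 3. *Col6a1* was highest in wt replicate 2 at 671 TPM, with 549.8 to 566 TPM in the other 3. *Hoxa2* was lowest in wt replicate 4 at 71.2 TPM, with 75.5 to 75.9 TPM in the other 3. *Hoxa7* was lowest in wt replicate 1 at 20.2 TPM, with 29.3 to 31.0 TPM in the other 3. *Hoxa9* was lowest in wt replicate 4 at 14.1 TPM, with 17.0 to 17.3 TPM in the other 3. *Hoxb5* was highest in wt replicate 3 at 28.7 TPM, with 19.8 to 20.3 TPM in the other 3. *Myf6* was lowest in wt replicate 4 at 2.49 TPM, with 4.26 to 4.52 TPM in the other 3. *Shox2* was highest in *Hoxa5*-/- replicate 3 at 52.5 TPM, with 37.5 to 40.02 TPM in the other 3. *Sox9* was highest in *Hoxa5*-/- replicate 4 at 149 TPM, with 128 to 131 TPM in the other 3. The sum of Hox genes was highest in *Hoxa5*-/- replicate 4 at 866 TPM, with 678 to 705 TPM in the other 3. The sum of the sex-linked genes was highest in wt replicate 1 at 339.8 TPM, with 139 to 151 TPM in the other 3.

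The genotype effect differed between E12.5 and E10.5 by the interaction test of edgeR for 3 genes. The difference of the log2 fold changes (E12.5 minus E10.5) was -1.39 (SE 0.12, adjusted p 2.72e-05) for *Tmem254*, 1.25 (SE 0.16, adjusted p 0.00267) for *Gm6969* and 1.26 (SE 0.19, adjusted p 0.0334) for *Rtraf-ps*. At E12.5 alone their log2 fold changes were -0.036, 0.032 and 0.055. *Rtraf-ps* is a pseudogene, as is *Gm6969* in the annotation, so that reads may be shared with a parent gene.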

How the results depend on the processing

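*Hoxa5* was called under every alternative except wt replicate 3 alone against the mutants (added after the data were seen), where its log2 fold change was -1.74 and 0 genes were called, with 851 at unadjusted p under 0.05. Otherwise its log2 fold change ran from -1.75 to -1.53. Against 1 gene called, 2 were called by DESeq2, by 1 fit for the 15 libraries, and with the replicate sets 1, 2 and 3, 4 as a term (added later), and 10 without a level minimum. No lineage gene was called under any alternative, and 146 to 193 of 203 had an interval inside 1.5-fold. Lineage genes at unadjusted p under 0.05 numbered 2 (0.985%, against 3.24% of all genes), but 14 without a level minimum (6.9% against 2.94%), 0 in 1 fit for the 15 libraries (against 2.11%), 9 with *Xist* (4.43% against 3.66%), 31 with the replicate sets as a term (15.3% against 7.91%) and 4 with wt replicate 3 alone (1.97% against 4.5%). Leaving out 1 library gave 1 to 2 called genes (2 without wt replicate 3), 2 to 11 such lineage genes (most without wt replicate 2) and 2 to 2571 interactions. DESeq2 called 17 interactions. The causes were not tested. Among named genes, 59 intervals went past 1.5-fold and 38 came inside it while 1790 kept their side over all alternatives, and no gene with an unadjusted p under 0.05 changed sign. With the replicate block, 2 genes (*Hoxa5* and *Oc90*) were called, 37 lineage genes (18.2%, against 7.3% of all genes) had an unadjusted p under 0.05, and 1 gene was called in the interaction. Same-numbered libraries correlated in their deviations by -0.029, 0.16, 0.045 and 0.087. The sets of replicates 1, 2 and 3, 4 still accounted for 93.8% of the first component. Whether the numbers pair single libraries was not tested. At a level of 99%, 64.1% of genes lay inside 1.5-fold. Intervals were widest under 5 TPM.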
